A study of Mus musculus with 36 samples.

Results

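The effect of imipramine (IMN), a tricyclic antidepressant, was followed across genes in the anterior cingulate cortex (aCC) of wild-type (WT) female mice. These 18 libraries, 8 from vehicle-treated and 10 from IMN-treated WT mice, were taken by their labels out of 36 in the series. The other 18 came from mice with 1 targeted allele of Brd1 (Brd1+/-, 9 vehicle and 9 IMN) and serve here only as a second, separate set of animals given the same drug. WT vehicle mice received saline and WT IMN mice 10 mg/kg IMN, both injected under the skin, and all were 8 to 11 weeks old, of the C57BL/6NTac-Brd1 strain and of litters that also gave Brd1+/- mice. By the study's methods every animal, vehicle animals included, was injected on 2 days, hung by the tail in a test on the first day, and met an open field and a forced swim on the second, and the brain was taken 1 h after the swim. The vehicle group is therefore a group of recently stressed mice and not a group at rest. Tissue was taken from the right aCC with a punch needle.

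Imipramine blocks the transporters that clear noradrenaline and serotonin from the synapse, and it also binds several receptors, among them muscarinic, histamine and adrenergic receptors. Swimming and handling drive cortical neurons, and driven neurons switch on immediate-early genes within minutes: transcription factors such as Fos, Egr1 and Npas4 first, and then effectors that act at the synapse, such as Arc, Bdnf and Nptx2. The same stress releases corticosterone, which acts through the glucocorticoid receptor on genes such as Fkbp5, Sgk1 and Ddit4. The level of such genes soon after a swim is therefore a readout of recent activity and stress as much as of drug.

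Gene levels are given in TPM, which are scaled to a fixed sum in each library, so they compare shares of RNA and do not tell fewer cells of a type from less RNA per cell. Between 24797 and 25514 genes were above 0 in a WT library. Mitochondrially encoded genes held 24.6% ± 1.61 (SD, n = 8) of the TPM in WT vehicle and 25.5% ± 2.27 (SD, n = 10) in WT IMN. The labelled tissue was checked against markers: the upper-layer gene Cux2 had a median of 121 TPM in WT vehicle and 65.3 TPM in WT IMN, with the lowest value (9.86 TPM) in vehicle replicate 1, whereas Drd2, which marks a class of striatal neurons, did not pass 1.48 TPM in a WT library, and 4 of the 12 choroid plexus and ependyma markers were listed at 0 in all WT libraries.

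A pair of WT libraries stood farthest apart in composition. WT vehicle replicate 1 and WT IMN replicate 7 had oligodendrocyte and myelin scores (the mean log2(TPM + 0.5) of 14 marker genes) of 6.49 and 6.85, against 2.75 to 4.90 in the other vehicle libraries and at most 5.48 in the other IMN libraries. Their deep-layer scores, 4.61 and 5.14, were also the highest of their groups, and their upper-layer scores, 4.26 and 4.31, the lowest. Results are therefore given with all 18 libraries and without WT vehicle replicate 1. Leaving it out does not make the groups alike in myelin markers. IMN replicates 2 to 5 scored 5.26 to 5.48, above all the other vehicle libraries. The plot of list scores shows that vehicle replicate 1 also had the lowest immediate-early score of its group, while IMN replicate 7, with the same markers high, lay among the other IMN libraries. IMN replicates 2 to 5, next in myelin score, had the lowest immediate-early scores of the IMN group, 4.16 to 4.30. The other IMN libraries, replicate 7 included, had 4.37 to 4.74.

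**Figure D1:**
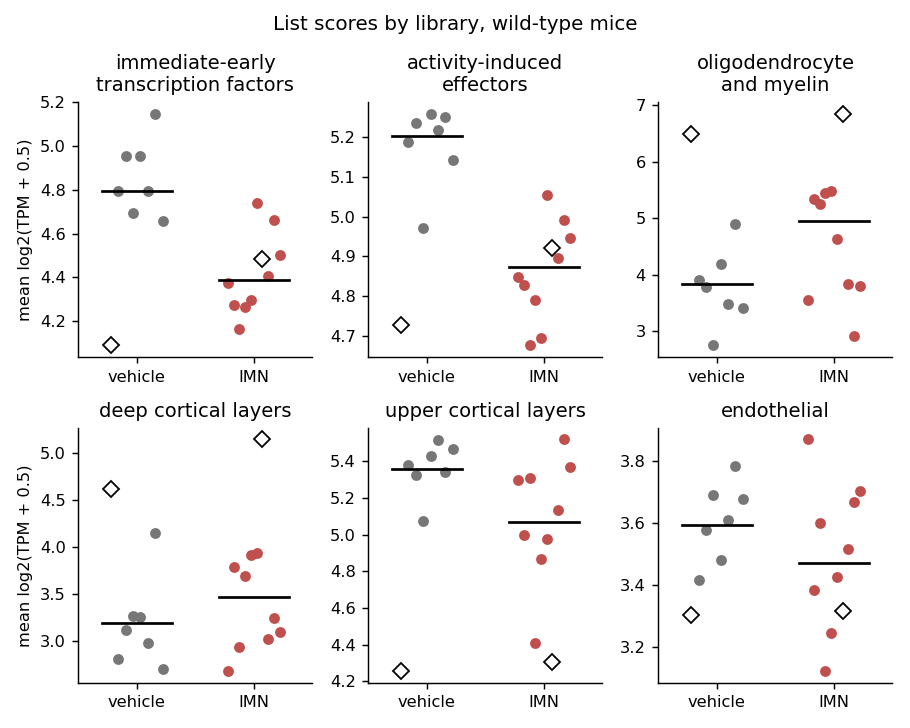
List scores by library in wild-type mice. Each panel plots, on the y axis, the mean log2(TPM + 0.5) over the genes of a list, for 8 vehicle and 10 IMN libraries; lines are medians, and open diamonds mark WT vehicle replicate 1 and WT IMN replicate 7, which have the highest oligodendrocyte scores of their groups (6.49 and 6.85) but not the same place for immediate-early genes (4.09 and 4.49).

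With all 18 WT libraries no gene passed an adjusted p of 0.05 (0.0% of 25572 genes tested, limma with Benjamini-Hochberg adjustment), while 1687 genes had an unadjusted p under 0.05. At the unadjusted level of 0.01, the level used in the study and called nominal here, 110 genes were higher with IMN (0.43% of those tested) and 294 were lower (1.15%). The excess of lower genes depended in part on scaling: median-ratio scaling gave 170 higher and 264 lower, quantile normalization 184 and 241, and leaving out the mitochondrial genes 164 and 240. Leaving out WT vehicle replicate 1 brought 32 genes under an adjusted p of 0.05 (0.125%), 3 higher and 29 lower, and the nominal genes numbered 212 higher (0.829%) and 578 lower (2.26%); quantile normalization gave 374 and 523. Of the 404 nominal genes of the full set, 330 (81.7%) were among the 790 without that library (41.8% of those), each with the same sign. The groups did not overlap for 4 lower genes with all libraries (0.0156%) and for 23 without replicate 1 (0.0899%), and for 0 (0.0%) and 5 (0.0196%) higher genes.

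The 32 genes need to be read with the choice of library in mind. WT vehicle replicate 1 was the lowest of the 8 vehicle libraries for 26 of the 29 lower genes, and for 6373 of the 25572 genes tested. Leaving it out therefore raised the vehicle level of those 26 genes. Gadd45b had an adjusted p of 0.0047 (limma) and the others lay close to the threshold, between 0.0411 and 0.0493, and leaving out any further library moved their number, from 1 to 69. The nominal count was steadier, from 619 to 1148. With the oligodendrocyte and deep-layer scores as covariates, the 32 genes became 3 and the 790 nominal genes 471.

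Of the 37 gene lists examined, that of the immediate-early transcription factors had the lowest median with IMN. All 26 listed were tested, and 22 had a lower mean log2 level with IMN (all genes: 13931 of 25572). With all libraries 7 were lower at the nominal level (all genes: 1.15%), and 15 without replicate 1 (all genes: 2.26%), with none higher in either. The 7 were Egr1, Egr3, Npas4, Jund, Srf, Klf4 and Klf10. The median log2 fold change of the list was -0.34, and -0.41 without replicate 1, against -0.01 over all genes tested. With the oligodendrocyte and deep-layer scores in the model the nominal members numbered 8, and 16 without replicate 1, and leaving out both compositionally distinct libraries gave 15. The promoters of 4 members of the list are shown because they carry a regulatory motif of activity-driven transcription, not for the size of their change: Npas4 was at the nominal level with all libraries, and Fos, Fosb and Nr4a1 without replicate 1. The capitals mark TGACG, the short form of the cAMP response element that CREB binds, or CGTCA on the other strand. They are RefSeq promoters of GRCm38.p6, 5′ to 3′ on the gene's strand, with 250 bases before the start and 50 after it. Npas4 lies at chr19:4989922-4990221 (minus strand), Fos at chr12:85473640-85473939 (plus), Fosb at chr7:19309996-19310295 (minus) and Nr4a1 at chr15:101266596-101266895 (plus).
Npas4: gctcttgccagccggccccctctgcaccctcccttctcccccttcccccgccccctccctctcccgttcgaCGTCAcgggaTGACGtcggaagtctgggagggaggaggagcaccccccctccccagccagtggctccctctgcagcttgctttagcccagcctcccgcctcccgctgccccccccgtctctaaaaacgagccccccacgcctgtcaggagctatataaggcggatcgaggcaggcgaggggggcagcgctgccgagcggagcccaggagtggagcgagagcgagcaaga
Fos: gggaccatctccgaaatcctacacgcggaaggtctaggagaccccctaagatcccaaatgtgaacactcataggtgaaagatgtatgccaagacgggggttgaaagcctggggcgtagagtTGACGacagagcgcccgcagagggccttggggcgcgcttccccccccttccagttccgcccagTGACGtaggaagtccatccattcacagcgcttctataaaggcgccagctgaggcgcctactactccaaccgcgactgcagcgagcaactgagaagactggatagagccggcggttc
Fosb: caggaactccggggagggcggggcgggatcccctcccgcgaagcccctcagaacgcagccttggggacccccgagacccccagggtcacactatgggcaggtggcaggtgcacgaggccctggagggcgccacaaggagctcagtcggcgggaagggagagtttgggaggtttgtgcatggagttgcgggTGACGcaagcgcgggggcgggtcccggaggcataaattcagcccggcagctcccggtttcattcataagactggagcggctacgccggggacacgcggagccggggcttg
Nr4a1: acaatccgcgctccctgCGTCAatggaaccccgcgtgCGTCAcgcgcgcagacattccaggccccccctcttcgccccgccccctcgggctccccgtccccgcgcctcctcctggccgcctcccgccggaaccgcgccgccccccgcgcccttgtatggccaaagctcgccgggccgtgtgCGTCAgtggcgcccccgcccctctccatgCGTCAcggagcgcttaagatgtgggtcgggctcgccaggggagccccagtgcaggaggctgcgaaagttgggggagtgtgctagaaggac

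Npas4 holds 2 copies of the motif, Fos 2, Fosb 1 and Nr4a1 4. Jund, which was at the nominal level with all libraries, holds none. Promoters were found for 20 of the 26 immediate-early genes, and 69.2% of their 26 promoters held the motif on at least 1 strand, against 20.8% of all 32851 promoters of this length and 28.0% of those of the genes tested. Among the activity-induced effectors described next, 21 of 42 promoters held it, and among the 29 lower genes called without replicate 1 38.9% of 36. The full element TGACGTCA, which contains both strands of the short form, was in 3.85% of the immediate-early and 14.3% of the effector promoters, in 0 of the 36 promoters of the 29 genes, in 2.67% of those of the genes tested and in 1.79% of all. The CArG box that SRF binds was in the promoters of 2 of the 20 immediate-early genes, Egr2 and Srf (10.0%), against 1.62% of the genes tested. Egr1, Egr3 and Klf10, lower at the nominal level with all libraries, were among the immediate-early genes without a promoter here. Their motifs were therefore not counted, nor were sites more than 250 bases before a start. A match describes letters in the window and no binding was measured.

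Npas4, a transcription factor that appears in neurons after calcium entry and drives inhibitory synapse genes, showed the largest difference of the 26 with all libraries; without replicate 1 that of Egr2 was larger. It ran from 12.4 to 63.5 TPM in WT vehicle (median 36.5) and from 11.8 to 25.4 TPM in WT IMN (median 18.9). The lowest vehicle value was replicate 1, and without it all 10 IMN libraries lay below the lowest vehicle library (27.8 TPM). Its log2 fold change was -0.98 (SE 0.244, limma adjusted p = 0.395), or 50.5% of vehicle, and -1.20 (SE 0.184, adjusted p = 0.0411) without replicate 1. The exact two-sided permutation test gave p = 0.00242 over 43758 arrangements of the libraries with all 18, and 5.14e-05 over 19448 without replicate 1. Both are unadjusted. Without replicate 1 the groups did not overlap, so the test could only give that value, its smallest, and it adds nothing to the non-overlap.

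Egr3, a zinc finger factor of the early growth response family, lay between 111 and 267 TPM in vehicle (median 228) and between 43.6 and 186 TPM with IMN (median 112). The groups overlapped, with 5 IMN libraries below every vehicle library. The log2 fold change was -0.85 (SE 0.238, adjusted p = 0.475). Egr1, the most used marker of the family, ran from 178 to 415 TPM and from 154 to 287 TPM, a log2 fold change of -0.54 (SE 0.157, adjusted p = 0.486). For Egr1, unlike most of the group, replicate 1 was not the lowest vehicle library (198 TPM).

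Other members reached the nominal level only without replicate 1, where their vehicle values closed up. Fos, part of the AP-1 factor, ran from 32.2 to 76.8 TPM in vehicle (median 57.9) and from 38.3 to 61.8 TPM with IMN (median 43.2). Replicate 1 held the lowest value of all 18, and 8 IMN libraries lay below the next vehicle library (47.3 TPM). The log2 fold change was -0.32 (SE 0.132, adjusted p = 0.705), and -0.43 (SE 0.101, adjusted p = 0.137) without it. Fosb went from a median of 45.5 TPM to 24.7 TPM, with replicate 1 at 9.60 TPM. It passed the adjusted threshold only without that library (log2 fold change -0.86, adjusted p = 0.0462). Egr4 (-0.88, adjusted p = 0.0493) passed in the same fit, as did Klf4 (-0.73, adjusted p = 0.0411), which was at the nominal level with all libraries as well. Nr4a1, an orphan nuclear receptor, did not (-0.59, adjusted p = 0.0961), nor did Egr2 (-1.36, adjusted p = 0.0979) or Junb (-0.55, adjusted p = 0.196). Nab2, a repressor that binds Egr factors and is induced by them, was not on the list but passed too, at 53.2 to 60.3 TPM in vehicle without replicate 1 and 29.2 to 47.3 TPM with IMN (log2 fold change -0.48, adjusted p = 0.0423).

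**Figure D2:**
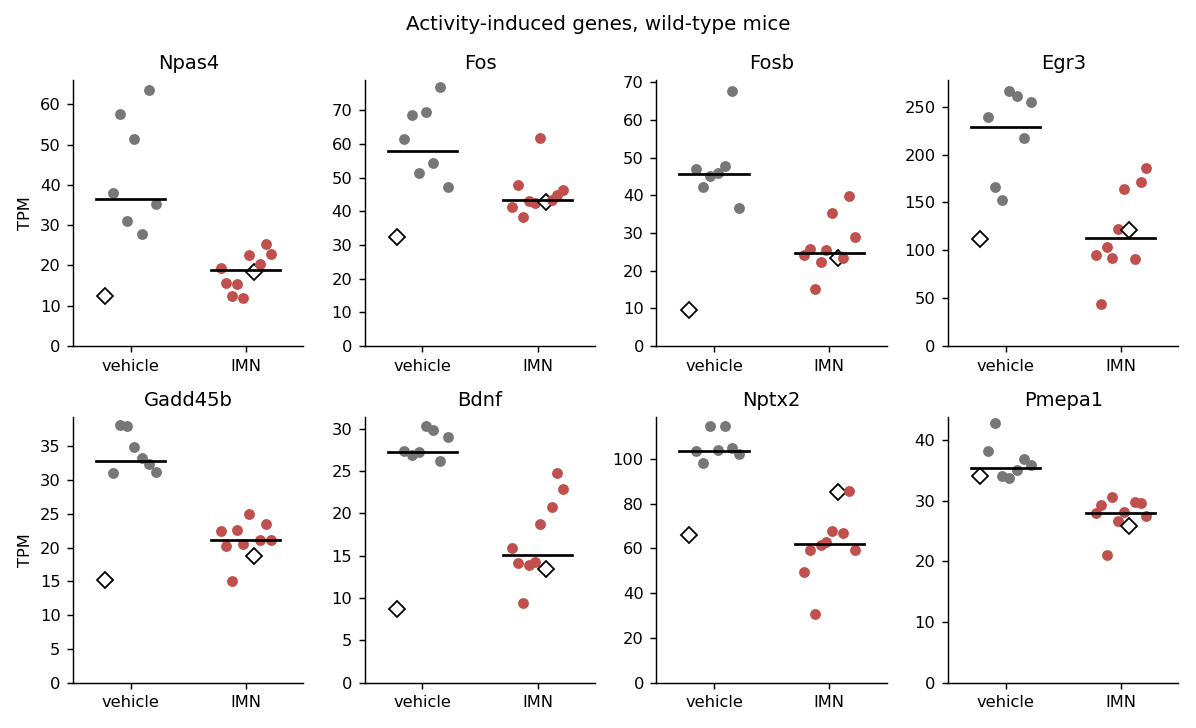
Activity-induced genes in wild-type mice. Each point is the TPM (y axis, from 0) of 1 library, 8 vehicle and 10 IMN, lines are medians, and open diamonds mark WT vehicle replicate 1 and WT IMN replicate 7; for Npas4, Gadd45b, Bdnf and Nptx2 all 10 IMN libraries lie below every vehicle library but replicate 1, and for Pmepa1 below all 8.

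The effectors that neuronal activity induces had the next lowest median among the pathway lists. Of 34 listed and tested, 29 had a lower mean with IMN (all genes: 13931 of 25572). At the nominal level 11 were lower (all genes: 1.15%) and none higher. Without replicate 1 the numbers were 16 lower (all genes: 2.26%) and 1 higher, the latter being Sgk1. The median log2 fold change was -0.22, and -0.31 without replicate 1. The scores used as covariates left 11 and 15 lower.

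Pmepa1, a membrane protein that limits TGF-beta signalling, had the smallest p of all lower genes (chr2:173224458-173276533, minus strand, GRCm38). Its values, 33.8 to 42.7 TPM in vehicle (median 35.4) and 21.0 to 30.7 TPM with IMN (median 28.0), did not overlap in any of the 18 libraries. The log2 fold change was -0.39 (SE 0.0685, adjusted p = 0.242), or 76.3% of vehicle, and since the gene is named for its p and its groups do not overlap, the exact permutation test can only give its smallest value (2.29e-05, unadjusted). Without replicate 1 the fold change was all but the same (-0.40), with an adjusted p of 0.0462.

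Nptx2, a secreted pentraxin that gathers AMPA receptors at excitatory synapses on interneurons, ran from 66.0 to 115 TPM in vehicle and from 30.6 to 85.4 TPM with IMN. Replicate 1 was the only vehicle library below 98.1 TPM. The log2 fold change was -0.71 (SE 0.156, adjusted p = 0.285), and -0.79 (adjusted p = 0.0493) without it. Bdnf, the neurotrophin, was tightly placed in vehicle apart from replicate 1 (8.74 TPM, the others 26.2 to 30.3 TPM). With IMN it ran from 9.38 to 24.8 TPM, so that its adjusted p was 0.667 with all libraries and 0.0493 without replicate 1 (log2 fold change -0.57 and -0.77). Gadd45b, a stress-induced protein linked to DNA demethylation in neurons, was the gene with the smallest adjusted p without replicate 1: vehicle then ran from 31.0 to 38.2 TPM and IMN from 15.0 to 24.9 TPM, a log2 fold change of -0.69 (SE 0.0857, adjusted p = 0.0047). Replicate 1 stood at 15.3 TPM.

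Arc, which moves AMPA receptors away from the synapse, differed by almost the same size with and without that library. It ran from 148 to 343 TPM in vehicle (median 284; replicate 1 at 263) and from 138 to 300.2 TPM with IMN (median 184), with 9 of 10 IMN libraries below the vehicle mean. Its log2 fold change was -0.53 (SE 0.157, adjusted p = 0.517) with all libraries and -0.54 without replicate 1. Rgs2, which shortens signalling by Gq-coupled receptors, had medians of 37.6 TPM in vehicle and 26.5 TPM with IMN (log2 fold change -0.45, adjusted p = 0.242, and -0.49, adjusted p = 0.0462, without replicate 1). Inhba, a subunit of activin (-0.58), Trib1, a pseudokinase (-0.44), Sik2, a salt-inducible kinase (-0.46), and Baz1a, a chromatin remodelling subunit (49.9% of vehicle), were also lower at the nominal level with all libraries. Of 20 genes that feed back on the MAP kinase pathway, 2 were lower at the nominal level with all libraries (all genes: 1.15%). These were the phosphatase Dusp7 (-0.25) and Spred2 (-0.26).

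**Figure D3:**
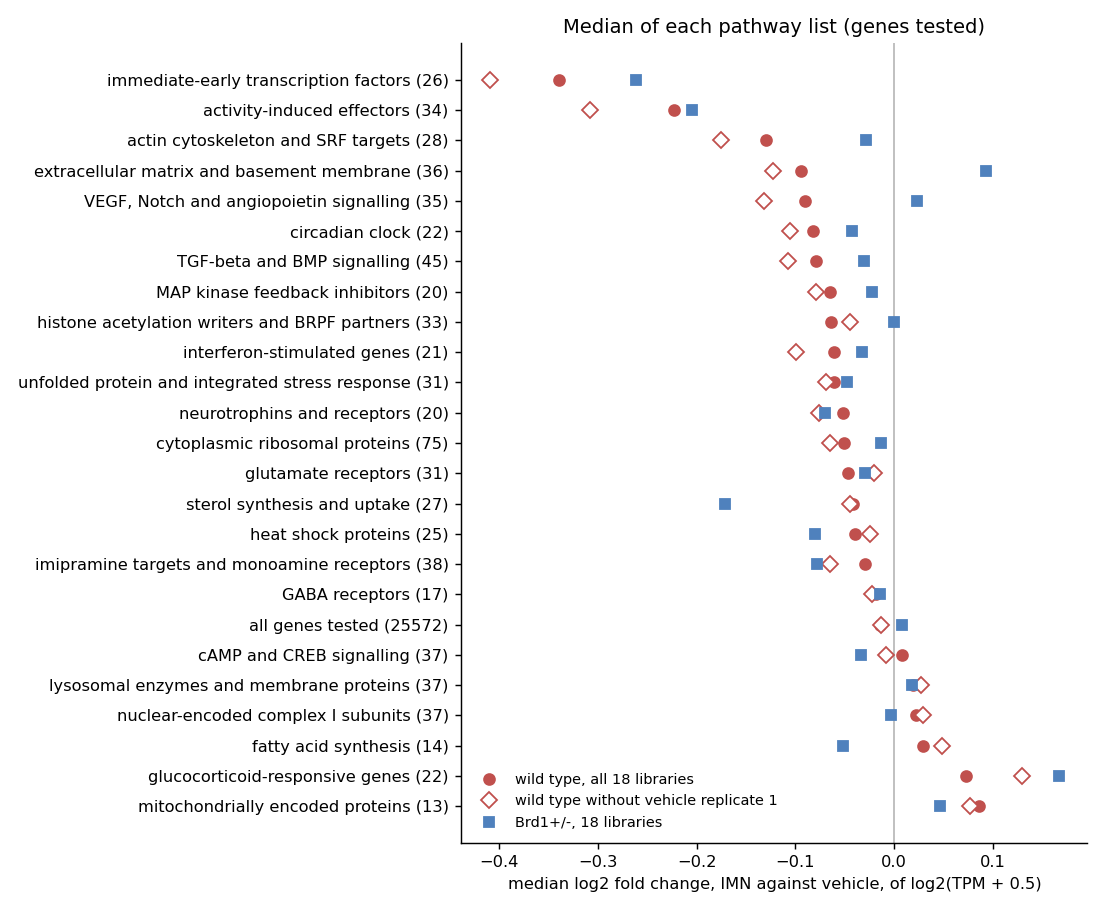
Median log2 fold change (x axis, IMN against vehicle on the log2(TPM + 0.5) scale) of each pathway list and of all genes tested, with the number of genes tested in brackets. Filled circles are WT with all 18 libraries, open diamonds WT without vehicle replicate 1 and squares Brd1+/- mice; the 2 activity lists lie farthest from 0 in WT (-0.34 and -0.22), and the sterol list lies farther from 0 in Brd1+/- (-0.17) than in WT (-0.04).

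Some genes of the vessel wall were lower at the nominal level. Sox18, a transcription factor of endothelial cells, ran from 8.71 to 15.2 TPM in vehicle (median 12.3) and from 6.94 to 9.48 TPM with IMN (median 7.64), and 8 of 10 IMN libraries lay below every vehicle library. Its log2 fold change was -0.54 (SE 0.101, adjusted p = 0.242), and -0.58 (adjusted p = 0.0423) without replicate 1. Its relative Sox7 was lower too (0.794 against 1.17 TPM in the medians; -0.37). In the list of VEGF, Notch and angiopoietin signalling, Sox18, Sox7, Vegfb and Klf4, which the immediate-early list also holds, were lower at the nominal level of 35 members (all genes: 1.15%) and none was higher, and 10 were lower without replicate 1 (all genes: 2.26%); with the oligodendrocyte and deep-layer scores as covariates the lower members numbered 3 and 5. With all libraries the 18 endothelial markers did not move together. Sox18 and Sox7 were lower, while the drug and hormone carriers of the blood-brain barrier Slco1a4 (log2 fold change 0.55, adjusted p = 0.597) and Abcb1a (0.29, adjusted p = 0.609) were higher at the nominal level. Without replicate 1 neither carrier reached that level. In that fit 3 of the 18 were lower (all genes: 2.26%) and 0 higher (all genes: 0.829%). The endothelial score overlapped between the groups, 3.30 to 3.78 in vehicle and 3.12 to 3.87 with IMN.

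The genes higher with IMN were fewer, and 3 of the 110 were among the 22 listed as responsive to glucocorticoids: Sult1a1, Ddit4 and Plin4 (all genes: 0.43%). None of the 22 was lower with all libraries, and without replicate 1 4 were higher and 2 lower. Sult1a1, a sulfotransferase of phenols and catechols (chr7:126672865-126676432, minus strand, GRCm38), ran from 5.18 to 11.0 TPM in vehicle (median 9.18) and from 10.8 to 14.5 TPM with IMN (median 13.3). In 9 of 10 IMN libraries it exceeded every vehicle library. The log2 fold change was 0.58 (SE 0.113, adjusted p = 0.242), or 149% of vehicle, and the same without replicate 1 (adjusted p = 0.0783). Ddit4, an inhibitor of mTORC1 that glucocorticoids and low oxygen induce, lay above the vehicle mean in 10 of 10 IMN libraries, at 16.1 to 28.4 TPM (median 20.5) in vehicle and 25.1 to 38.8 TPM (median 28.8) with IMN (log2 fold change 0.47, SE 0.0926, adjusted p = 0.242). Plin4, a lipid droplet coat protein, was low and spread widely with IMN (1.13 to 8.83 TPM, against 0.720 to 1.88 TPM; log2 fold change 0.76, adjusted p = 0.627). For both Ddit4 and Plin4 the highest value was that of WT IMN replicate 7, the library with high myelin markers.

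For most other genes of that list the values lay closer together. Its most abundant members Mt1 and Mt2, which encode metallothioneins, had log2 fold changes of 0.04 (SE 0.119) and -0.06 (SE 0.125), and Fam107a one of 0.26 (SE 0.109, adjusted p = 0.706). The median of the list was 0.07, and 0.13 without replicate 1. Sgk1, a kinase with the highest vehicle value in replicate 1 (98.8 TPM, vehicle median 37.2), reached the nominal level only without that library (0.72, adjusted p = 0.323). In the same fit Per1 and Cdkn1a, which are induced by activity as well as by glucocorticoids, were lower (-0.29 and -0.64, adjusted p = 0.290 and 0.0493), so the list was split by direction. The values of Sgk1 were 67.0 to 146 TPM in IMN replicates 2 to 7, whose myelin scores were 4.64 to 6.85. IMN replicates 1, 8, 9 and 10, with scores of 2.91 to 3.83, were at 29.1 to 45.2 TPM. The vehicle libraries other than replicate 1 were at 29.4 to 47.2 TPM. With the composition scores as covariates 3 members of the list were higher with all libraries and 2 without replicate 1.

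**Figure D4:**
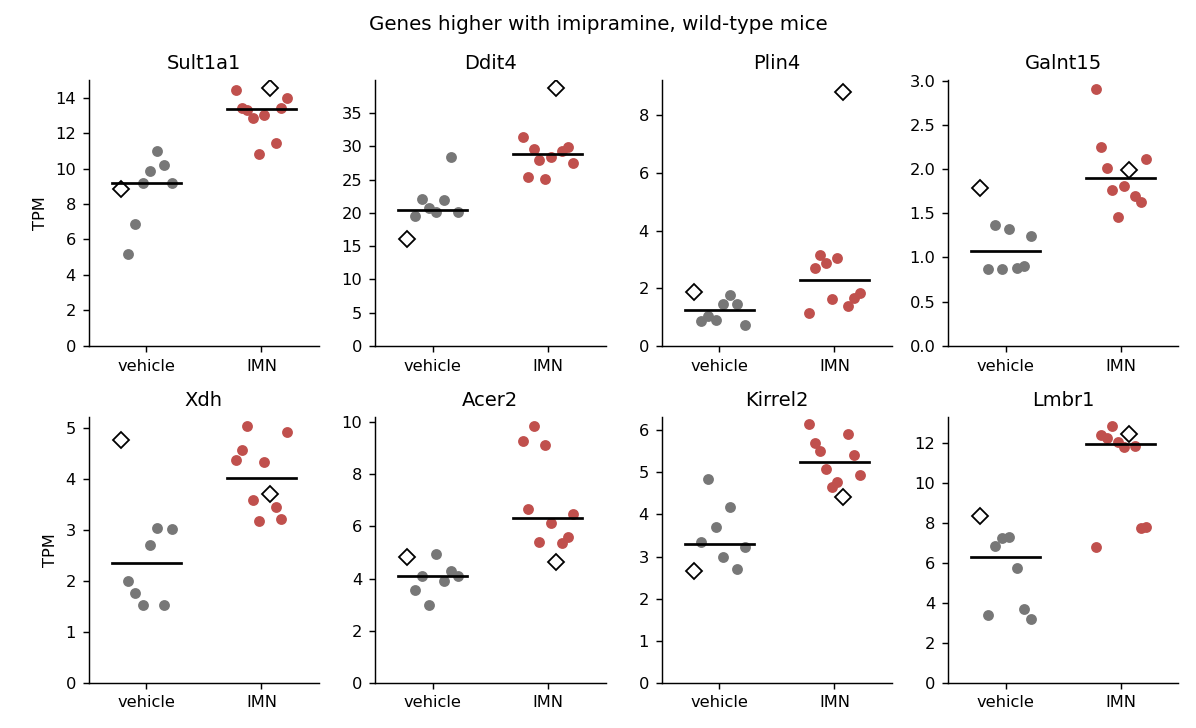
Genes higher with imipramine in wild-type mice. Each point is the TPM (y axis, from 0) of 1 library, 8 vehicle and 10 IMN, lines are medians, and open diamonds mark WT vehicle replicate 1 and WT IMN replicate 7; Sult1a1 and Acer2 exceed every vehicle library in 9 of 10 IMN libraries, and for Xdh and Galnt15 the 2 groups overlap only through vehicle replicate 1.

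Among the other higher genes, Lmbr1, a membrane protein, showed the largest fold change of the 12 with the smallest p and a mean of at least 1 TPM. It ran from 3.21 to 8.36 TPM in vehicle (median 6.30, highest in replicate 1) and from 6.78 to 12.8 TPM with IMN (median 11.95), a log2 fold change of 0.90 (SE 0.189, adjusted p = 0.272) or 187% of vehicle. Acer2, an alkaline ceramidase of the Golgi that yields sphingosine, ran from 3.00 to 4.95 TPM in vehicle and from 4.65 to 9.86 TPM with IMN (0.65, SE 0.140, adjusted p = 0.285). Kirrel2, an adhesion protein of the immunoglobulin family, had the smallest p of the higher genes (0.55, SE 0.106, adjusted p = 0.242; 10 of 10 IMN libraries above the vehicle mean). Xdh, the xanthine oxidoreductase that makes urate, and Galnt15, an O-glycosylation enzyme, were separated from vehicle in 10 of 10 IMN libraries once replicate 1 was left out. Their log2 fold changes were 0.64 and 0.58 with all libraries (adjusted p = 0.428 and 0.285) and 0.76 and 0.65 without it (adjusted p = 0.0493 for both). With Lmbr1 these were the 3 higher genes that passed the adjusted threshold in that fit.

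The lower genes outside the lists included several that kept their groups apart. Rhoc, a small GTPase of the actin skeleton, ran from 20.2 to 24.4 TPM in vehicle and from 13.5 to 20.02 TPM with IMN, with no overlap (log2 fold change -0.36, SE 0.0750, adjusted p = 0.272). Fam129b did the same at 21.2 to 25.5 and 15.3 to 19.9 TPM (-0.34, adjusted p = 0.242, and 0.0493 without replicate 1). The fourth non-overlapping gene, named after its values were seen, was Kdm7a, a histone demethylase (-0.26, adjusted p = 0.364). Tnfrsf25, a death-domain receptor, had the largest fold change of the 12 lower genes with the smallest p (-0.81, SE 0.167, adjusted p = 0.272), and 9 of 10 IMN libraries were below every vehicle library. Mycn (-0.45), the deubiquitinase Usp28 (-0.39), Zswim6 (-0.66), Wbp2 (-0.24) and Gm10244 (-0.53), a predicted gene, were the rest of those 12 beside Pmepa1, Sox18, Rgs2, Nptx2, Rhoc, Fam129b and Tnfrsf25.

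The known targets of the drug gave few differences. Of 43 listed transporters and receptors, 38 were tested; those left out include the transporters themselves, with Slc6a4 (serotonin) listed at 0 in every WT library and Slc6a2 (noradrenaline) above 0 in 1 library; both are transcribed in brain stem neurons that project to cortex. At the nominal level 2 members were lower (all genes: 1.15%) and none higher. Adrb1, the beta-1 adrenergic receptor, ran from 16.5 to 27.9 TPM in vehicle and 12.7 to 21.3 TPM with IMN (log2 fold change -0.32, SE 0.103, adjusted p = 0.584), and Chrm4, a muscarinic receptor, from 29.4 to 50.8 and 19.96 to 40.2 TPM (-0.37, SE 0.120, adjusted p = 0.586); after quantile normalization neither reached that level. All 10 IMN libraries were below the vehicle mean for both. Drd2 gave -0.12 (SE 0.222), and its sign changed with array weights (0.04). Brd1 itself, the gene targeted in the other mice, was at 22.6 to 31.9 TPM in WT vehicle and 17.9 to 27.8 TPM in WT IMN (-0.18, SE 0.0909, adjusted p = 0.782).

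Receptor and basal machinery lists showed no called member or 1. None of 17 GABA receptor, 37 complex I, 13 mitochondrially encoded, 75 cytoplasmic ribosomal, 21 interferon-stimulated and 14 fatty acid synthesis genes reached the nominal level with or without replicate 1. The 31 glutamate receptor genes and the 37 cAMP and CREB genes had 0 with all libraries and 1 each without replicate 1, Grm2 (-0.50) lower and Rapgef4 (0.65) higher. Replicate 1 held the lowest vehicle value of Grm2 (8.83 TPM) and the highest of Rapgef4 (331 TPM). IMN replicate 7 held those of its group (12.5 and 460 TPM). The circadian list had 1 of 22 lower with all libraries and 6 without replicate 1, but 2 when IMN replicate 7 was left out too or after quantile normalization. Sterol synthesis had Mvd (mevalonate decarboxylase; -0.36, adjusted p = 0.430) and Scap (-0.25) lower and Lbr (0.31) higher, of 27. Other lists had more lower members without replicate 1, where 2.26% of all genes were lower, against 1.15% with all libraries. Actin and SRF targets (median -0.13) had 3 of 28 lower and 6 without replicate 1, extracellular matrix genes 1 and 4 of 36, TGF-beta and BMP genes 3 and 5 of 45, and heat shock genes 2 and 5 of 25. Some of these were already counted above. Pmepa1 and Inhba are on both the TGF-beta and effector lists, and Srf on both the actin and immediate-early lists.

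Cell type markers were read beside these lists. The 14 oligodendrocyte and myelin genes all had a higher mean with IMN, by a median of 0.61, and 0.94 without replicate 1, and none reached the nominal level, since they spread widely within each group: their summed TPM ran from 198 to 2937 in vehicle and from 239.9 to 3688 with IMN. The 14 deep-layer markers had a median of 0.18 and the 12 upper-layer markers one of -0.12, with 1 of the latter, Rorb, lower at the nominal level; without replicate 1 these medians were 0.29 and -0.28, and 2 upper-layer markers were lower. The 12 microglia, 12 mural, 10 meningeal and 5 erythrocyte markers had no called member in either fit, while 1 of 9 oligodendrocyte precursor markers was lower in both and 2 of 13 astrocyte markers without replicate 1. Among 13 interneuron and 12 tested striatal markers the single called gene was the neuropeptide Tac1, which is on both lists (7.92 to 26.8 TPM in vehicle and 15.9 to 45.6 TPM with IMN; 0.81, SE 0.234, adjusted p = 0.486). The part of composition in the activity genes was not tested beyond the covariate fits given above.

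The Brd1+/- libraries entered no WT fold change, though they helped to set which genes were tested. Some of them stood apart as well: vehicle replicate 6 had a striatal score of 5.80 and a choroid plexus score of 4.69, and IMN replicates 5 and 6 had myelin scores of 6.25 and 6.76. With all 18 of them 172 genes were higher (0.673%) and 141 lower (0.551%) with IMN at the nominal level. Of the 294 genes lower in WT at that level, 247 (84.0%) were lower in Brd1+/- too, and of the 110 higher genes 89 (80.9%) were higher, where 57.7% of all genes tested had the same sign. Unadjusted p under 0.05 with the same sign was reached in Brd1+/- by 102 of the 404 (25.2%), and by 3.89% of all genes; 2 of the 404 reached it with the opposite sign. Without WT vehicle replicate 1 the 790 nominal genes gave 650 (82.3%) with the same sign, against 57.2% of all genes, and 148 (18.7%) at that level. Sizes were smaller, with a median of -0.37 in WT and -0.14 in Brd1+/- for the 294, which were selected on their WT values. Without Brd1+/- vehicle replicate 6 and IMN replicates 5 and 6, 318 of the 404 (78.7%) had the same sign and 74 (18.3%) also an unadjusted p under 0.05, where all genes gave 53.9% and 3.6%; the 790 gave 557 (70.5%) and 102 (12.9%).

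All 12 lower and all 12 higher genes with the smallest p in WT had the same sign in Brd1+/- mice, and 5 of the lower and 11 of the higher ones had an unadjusted p under 0.05 there; without those 3 libraries 11 and 11 had the same sign, and 5 and 9 such a p. Sult1a1 had a log2 fold change of 0.72 (SE 0.165) in Brd1+/-, Xdh 0.73 (SE 0.194), Galnt15 0.70 (SE 0.148) and Ddit4 0.52 (SE 0.124). Npas4 gave -0.90 (SE 0.204), Nptx2 -0.62 (SE 0.158), Arc -0.81 (SE 0.199) and Egr1 -0.78 (SE 0.186). None of these 8 passed the limma adjusted p of 0.05 in that genotype (0.488 to 0.494). Of the 32 genes called without WT vehicle replicate 1, 30 had the same sign and 20 an unadjusted p under 0.05, and 30 and 12 without the 3 libraries. For the lists, 5 immediate-early factors and 8 effectors were lower at the nominal level in Brd1+/-, with medians of -0.26 and -0.21 (5 and 5, with -0.28 and -0.16, without the 3 libraries), and the glucocorticoid list had 3 higher, Ddit4, Sult1a1 and Fam107a. Of the 35 VEGF, Notch and angiopoietin genes 0 were lower and 1 was higher there, with a median of 0.02, and no member had an interaction at the nominal level. Sterol synthesis had 7 of 27 lower in Brd1+/-, among them Mvd (-0.56, limma adjusted p = 0.0492); no gene passed the adjusted threshold without the 3 libraries.

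**Figure D5:**
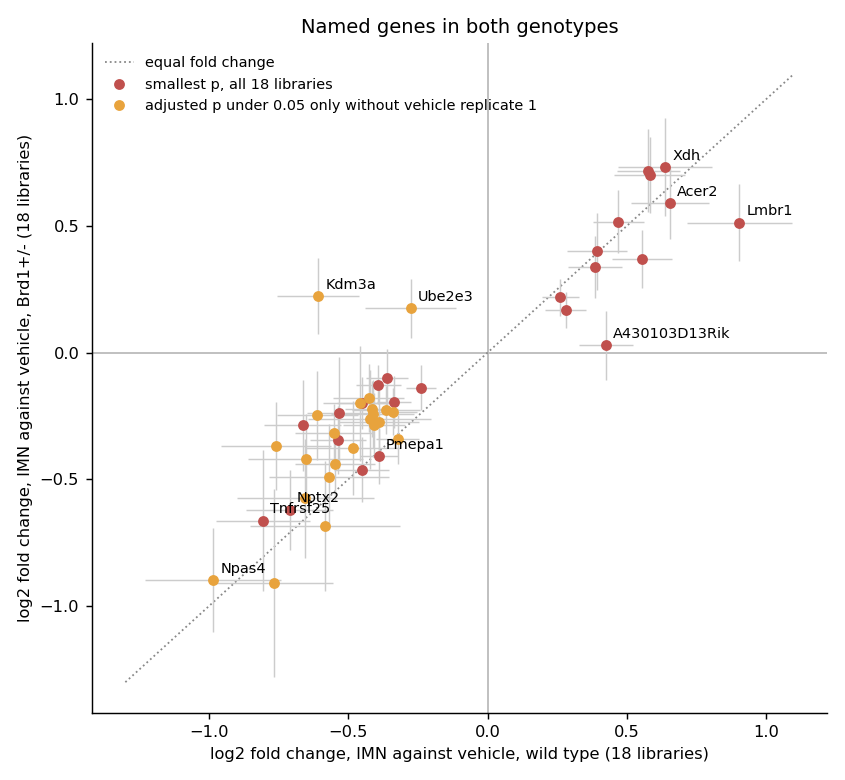
Named genes in both genotypes. The x axis is the log2 fold change with IMN in WT (18 libraries) and the y axis that in Brd1+/- mice (18 other libraries), bars are standard errors and the dotted line is equality; genes chosen by their WT values fall on the same side of 0 in both genotypes apart from Kdm3a and Ube2e3.

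A difference between genotypes was tested as an interaction over all 36 libraries. No gene passed an adjusted p of 0.05 in limma, 818 had an unadjusted p under 0.05, and 140 (0.547%) were at the nominal level. Among these were 26 of the 404 WT genes. The 404 were selected on their WT effect, which is itself part of the interaction, so their share cannot be compared with that of all genes. Of the 259 named genes, not all of them tested, 1 was at the nominal level (all genes: 0.547%): Kdm3a, a histone demethylase that is induced by low oxygen. Kdm3a was named for its WT values, which also enter the interaction. It ran from 33.2 to 82.2 TPM in WT vehicle and from 27.7 to 45.4 TPM in WT IMN (log2 fold change -0.61, SE 0.148), while in Brd1+/- mice it gave 0.22 (SE 0.149). The interaction was 0.83, with a limma adjusted p of 0.9998. The median interaction of the immediate-early list was 0.07 and that of the effectors 0.02, against 0.02 over all genes.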

How the data were processed

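Total RNA from the right aCC of single mice was sequenced on BGISEQ-500 as 50-base single-end reads. The authors filtered reads with FastQC and Trimmomatic, aligned them to GRCm38 with HISAT2 2.1.0 and estimated expression with StringTie 1.3.4, and deposited TPM per gene for 36 libraries. TPM keep no depth, so the depth of each library is unknown and no counting interval is given. Each library is 1 mouse, the labels name no batch, and no library pair among the WT was identical.

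Of 52636 genes, 25572 reached 0.1 TPM in 8 or more of the 36 libraries and were tested on log2(TPM + 0.5), which understates changes of low genes, with limma 3.58.1 (trend) in R 4.3.3 and Benjamini-Hochberg adjustment. Each comparison was fitted on its own libraries and the interaction on all 36. Single genes were also tested by exact two-sided permutation (numpy 2.4.6).

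The genes, lists and tests were chosen with earlier results of these data known. Named genes were those with an adjusted p under 0.05 in either WT fit, the 12 lower and 12 higher genes with the smallest p and a mean of at least 1 TPM, nominal list members, the most abundant list members, and Brd1, Drd2, Slc6a4, Slc6a2 and Mvd. Alternatives changed the pseudocount, filter, scaling, weights, covariates, block and libraries; leaving out WT vehicle replicate 1 together with WT IMN replicate 7, and 3 Brd1+/- libraries together, was added after seeing the data.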

Additional observations from a re-analysis of the deposited data

Results flagged for a closer look

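Among 124 groups of 8 to 10 WT values examined for a single library far from the rest (Dixon's criterion), 26 held one (21.0%), where chance alone gives about 1 in 20. In 19 of these WT vehicle replicate 1 stood alone and low. Its TPM values were 66.031 for Nptx2, 35.087 for Grasp, 9.6031 for Fosb, 13.376 for Sertad1, 15.283 for Gadd45b, 35.813 for Cdkn1a, 1.3116 for Pim1, 38.428 for Nab2, 28.931 for Ube2e3 and 58.398 for Cckbr. It also stood at 8.7536 TPM for Klhdc8b, 17.742 for Irs2, 32.17 for Erf, 5.7574 for Phf13, 8.7367 for Bdnf, 24.862 for Egr4 and 11.268 for A330009N23Rik. Its scores were 4.256 for upper cortical layers and 4.0897 for immediate-early transcription factors. Many of these genes were named because they passed without that library, so that they are not an independent count.

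WT IMN replicate 7 stood apart for Ddit4 (38.842 TPM), Stk40 (22.159 TPM) and the scores of oligodendrocyte precursors (3.7383) and deep cortical layers (5.1414). The other single libraries were WT IMN replicate 3 for Pmepa1 (20.995 TPM), WT vehicle replicate 2 for Sh2d3c (10.677 TPM) and WT IMN replicate 2 for Gm28294 (1.8402 TPM). The effect of IMN on Kdm3a differed between the genotypes at the unadjusted level, by 0.83104 on the log2 scale (Brd1+/- minus WT). It was the 1 such gene among 259 named and did not pass the adjusted threshold.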

How the results depend on the processing

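With all 18 WT libraries the nominal count of 404 became 780 with array weights, 718 without WT vehicle replicate 1 and WT IMN replicate 7 (1 gene, Gadd45b, then passed the adjusted threshold), and 321 to 790 when single libraries were left out, with 0 to 32 genes at the adjusted threshold, the 32 coming without WT vehicle replicate 1. Without that library the 790 became 471 with the composition scores as covariates, and the 32 became 14 (pseudocount 0.1), 1 (no filter), 18 (median-ratio scaling), 16 (quantile normalization), 3 (covariates), 12 (mitochondrial genes left out) and 1 to 69 (leaving out a further library). In Brd1+/- mice the 313 nominal genes became 547 with covariates, and the 2 adjusted genes became 0 with pseudocounts of 0.1 and 1, no filter, a mean of at least 1 TPM, quantile normalization, the replicate block and without Brd1+/- vehicle replicate 6 and IMN replicates 5 and 6 (331 nominal genes), 1 with median-ratio scaling, array weights and all 36 libraries, and 0 to 1 without single libraries. The interaction count of 140 became 70 with a mean of at least 1 TPM and 242 with array weights. Drd2 changed sign with array weights (0.03997) and ranged from -0.22066 to 0.0067933 when single libraries were left out. The cause was not tested in these cases.

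Same-numbered libraries did not deviate together (r from -0.26 to 0.08), so the samples were not treated as pairs. These values do not exclude a weak pairing. The replicate block kept only numbers present in both groups, so that WT IMN replicates 9 and 10 were left out. With it the WT nominal count was 436. Without WT vehicle replicate 1, and so without WT IMN replicate 1 too, it gave 1736 nominal and 242 adjusted genes. These counts therefore differ from the main fits in libraries as well as in the block. Depth is unknown, and 1 library per mouse limits every value.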
